A study of Mus musculus with 22 samples.

Results

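The Hox genes are transcription factor genes that sit side by side in 4 clusters (A, B, C and D) and are numbered 1 to 13 by paralog group. All symbols made of Hox, a cluster letter and a group number were taken from the count files of mouse colon crypt cells, which gave 39 members of the 24421 genes listed. The study sorted 6 epithelial populations from whole mouse colon and sequenced their RNA in bulk, in 22 libraries. Every library came from untreated wild type C57BL/6N males of 5 to 7 weeks, and every gate required live cells that were Cd31-, Cd45- and Epcam+. Stem cells (n = 3) were Cd44highest, Cd24low, Ckit-, and absorptive progenitors (AbsPro, n = 3) were Cd44med/hi, Cd24low, Ckit-. Secretory progenitors with deep crypt secretory cells and possibly goblet cells (SecPDG, n = 4) were Cd44hi, Cd24med, Ckitmed, and tuft cells (Tuft, n = 5) were Ckit+, Cd24hi. Enterocytes (Ent, n = 5) were Cd44low/-, Cd24-, and enteroendocrine cells (EEC, n = 2) were Cd44low/-, Cd24+. The colon was taken from caecum to rectum as 1 piece and samples were pooled where cells were few, so position along the colon cannot be told apart from cell type in these libraries.

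Hox proteins bind DNA through a homeodomain, largely together with cofactors of the TALE class (Pbx, Meis and Pknox proteins), and set position along the head to tail axis of the embryo. Genes at the low-numbered end of a cluster are used in the head and neck, those in the middle in the trunk, and those at the high-numbered end in the tail, limbs, hindgut and genital tract. In the adult gut the epithelium keeps a regional Hox pattern, in which high-numbered genes mark the distal colon and rectum, and the Cdx factors that define intestinal identity are known regulators of Hox genes.

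The HoxA cluster lay on mm10 chromosome 6, HoxB on chromosome 11 between 96194316 and 96368256, HoxC on chromosome 15 between 102921103 and 103036852, and HoxD on chromosome 2 between 74668310 and 74765142. The clusters also encode 2 families of microRNAs, the miR-196 and miR-10 families, whose mature sequences are given because their loci lie among the genes described here and because miR-196 is known to repress Hox mRNAs. The mature sequences from RefSeq (GRCm38.p6) are written 5′ to 3′ with the seed, bases 2 to 8, in capitals, and miR-196a is made at both a HoxB and a HoxC locus.
mmu-miR-196a-5p (chr11:96265187-96265208, plus strand, and chr15:102973365-102973386, plus strand): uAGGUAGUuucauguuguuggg
mmu-miR-196b-5p (chr6:52230129-52230150, minus strand): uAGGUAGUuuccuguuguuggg
mmu-miR-10a-5p (chr11:96317186-96317208, plus strand): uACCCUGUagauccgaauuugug
mmu-miR-10b-5p (chr2:74726074-74726096, plus strand): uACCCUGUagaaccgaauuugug
Both miR-196 sequences share 1 seed and both miR-10 sequences share another. The complement of the miR-196 seed, ACTACCT, read on the transcribed strand, was found in the 3′ UTRs of 9 of 39 Hox genes (23.1%) and of 1283 of 21004 genes in all (6.11%), with median UTRs of 966 and 961 bases. Hoxa7 held 4 matches and Hoxc8 held 2. The complement of the miR-10 seed, ACAGGGT, was found in 4 of 39 (10.3%) against 12.5% of all genes. In 4 of these genes, whose use of a distal poly(A) site was also measured, the match lay between the 2 poly(A) sites and so in the long form of the 3′ UTR alone. These matches are shown 5′ to 3′ on the transcribed strand with the seed complement in capitals.
Hoxa5 (chr6:52202119-52202125, minus strand): atatttttattcaaACTACCTa
Hoxa9 (chr6:52223901-52223907, minus strand): caaaaggaaagaaaACTACCTt
Hoxb6 (chr11:96301387-96301393, plus strand): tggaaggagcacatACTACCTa
Hoxb7 (chr11:96289798-96289804, plus strand): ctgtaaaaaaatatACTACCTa
A match describes these letters and is not evidence of a working site, and matches with wobble pairs were not searched.

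Values below are normalized counts, that is, counts divided by library size factors set by the trimmed mean of M values (TMM), so they compare 1 gene between libraries. Levels of different genes are compared per kilobase of exon. A gene was called changed where edgeR's quasi-likelihood test gave a Benjamini-Hochberg adjusted p under 0.01 and its normalized counts averaged 50 or more across the 22 libraries. All 39 Hox genes passed the filter on low counts and 25 had a mean of at least 50, of which 10 belonged to HoxA, 9 to HoxB, 6 to HoxD and 0 to HoxC. Reads on genes numbered between 19900282 and 22462518 in Stem and between 16614350 and 22157285 in AbsPro. They numbered 15314543 to 18628984 for SecPDG, 9930648 to 20892532 for Tuft and 5950619 to 12966128 for Ent, with 4122122 and 13132315 in the EEC libraries. The mature libraries also held more reads on 1562 genes of families used in other tissues (olfactory, vomeronasal and trace amine receptors, keratin-associated proteins and Rhox genes), which served as a measure of background. These families took 54.6 to 96.5 CPM (counts scaled to a library total of 1e6) in Stem, 183 to 1502 in Tuft, 789.9 to 3981 in Ent, and 632 and 7176 in EEC. Stem markers summed to between 21013 and 26392 in Stem and to at most 11199 in any other population, tuft markers to between 25455 and 68740 in Tuft, enteroendocrine markers to 598309 and 1721820 in EEC, and Ent held goblet markers at 236035 to 692594 beside its enterocyte markers at 56642 to 83245. Stromal markers summed to 69.4 to 252 in Stem and to 729.96 to 1545 in Ent. Enterocyte markers did not set Ent apart, at 73266 to 109571 in AbsPro and 25307.5 to 145490 in EEC. Goblet markers summed to 720518 to 1095440 in Tuft. Stem, tuft and enteroendocrine markers were highest in the populations of those names, and the mature populations were not free of other cells' RNA.

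**Figure D1:**
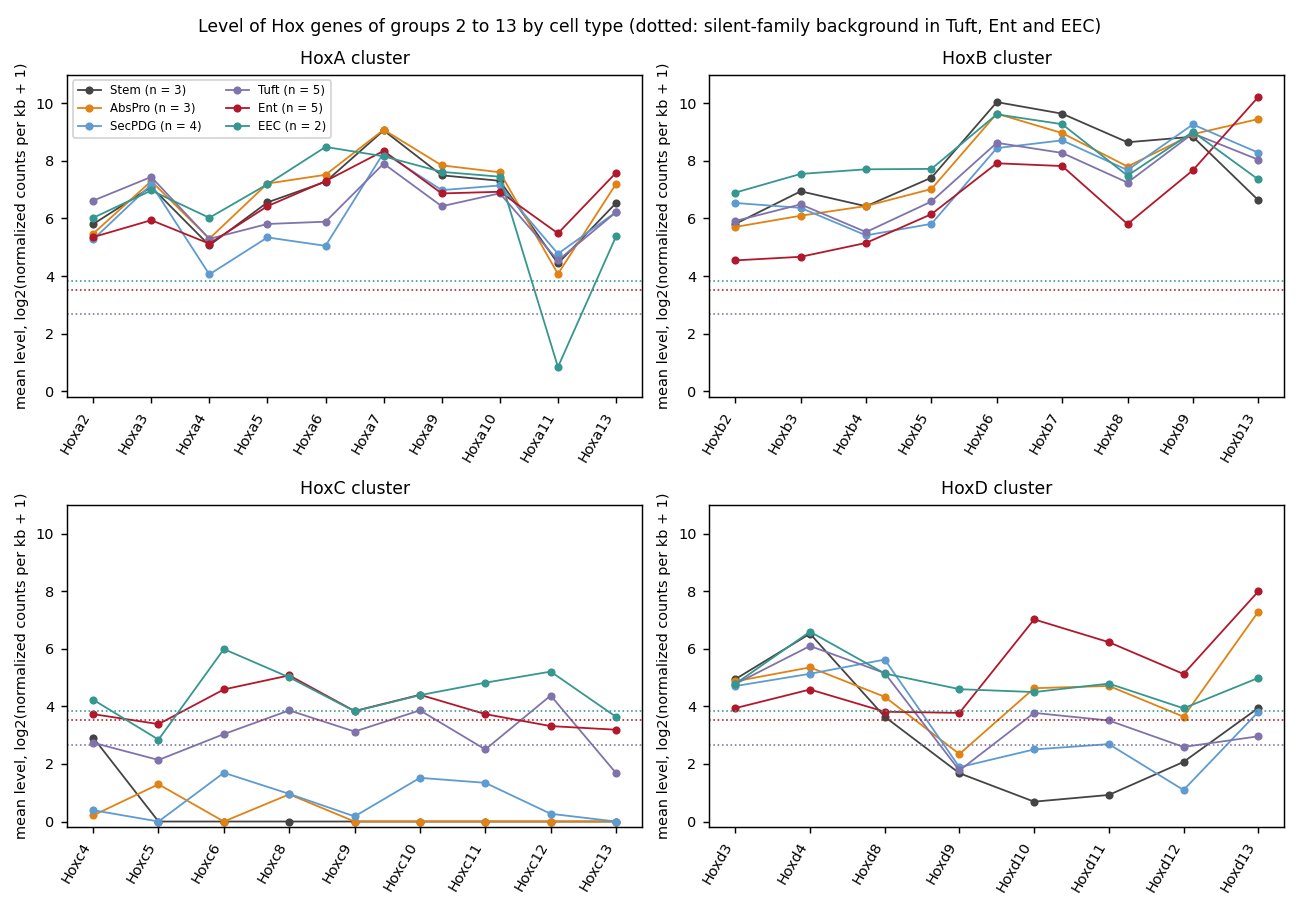
Mean level of the Hox genes of groups 2 to 13 per kilobase of exon on a log2 scale, by cluster and cell type, with the level that background alone would give as dotted lines. Most HoxA and HoxB genes stood far above background, and HoxC genes of Tuft, Ent and EEC lay near it. The Ent line lay above the Stem line at Hoxb13 (1191 per kilobase in Ent) and from Hoxd9 to Hoxd13. Background would account for 83.2% of the Ent level of Hoxd9 and 31.1% of that of Hoxd12, and neither was called. Ent also lay above Stem at other genes, such as Hoxa13 (192 and 91.9 per kilobase) and those of HoxC.

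In Stem the highest Hox levels were those of trunk genes from the middle of HoxB, and in Ent the highest was Hoxb13. The order of levels per kilobase in Stem was Hoxb6 (1054 ± 89.2), Hoxb7 (797 ± 156), Hoxa7 (532 ± 79.9), Hoxb9 (457 ± 82.8), Hoxb8 (400.0 ± 24.4), Hoxa9 (179.9), Hoxb5 (169.9), Hoxa10 (158), Hoxa6 (154) and Hoxa3 (136). In Ent the order per kilobase was led by Hoxb13 (1191 ± 813), followed by Hoxa7 (325 ± 152), Hoxd13 (253 ± 212), Hoxb6 (241), Hoxb7 (225), Hoxb9 (203), Hoxa13 (192) and Hoxa6 (156). The central groups 4 to 8 made up 70.6% ± 2.59 (SD) of the summed Hox level per kilobase in Stem, 54.3% ± 5.63 in AbsPro, 47.2% ± 5.43 in SecPDG, 48.6% ± 7.13 in Tuft, 35.5% ± 7.05 in Ent and 58.3% ± 12.1 in EEC. The posterior groups 9 to 13 made up 21.2% ± 1.09 in Stem, 38.6% ± 7.39 in AbsPro, 41.0% ± 6.81 in SecPDG, 36.4% ± 8.73 in Tuft, 58.3% ± 9.14 in Ent and 30.01% ± 11.0 in EEC. Hoxb13 alone went from 2.04% of the summed level in Stem to 13.4% in AbsPro and 27.6% in Ent, and the block from Hoxb3 to Hoxb9 went from 63.5% to 45.9% and 22.8%. In SecPDG and Tuft, Hoxb13 took 9.74% ± 4.19 and 8.33% ± 5.64 and that block 53.9% ± 3.26 and 50.5% ± 4.92. HoxD genes 9 to 13 took 0.45% in Stem, 3.99% in AbsPro and 12.1% in Ent. HoxA as a whole held 29.95% in Stem and 30.02% in Ent. Background was not subtracted from these shares, and it weighed more in the mature libraries. Reads on all 39 genes were 168 to 326 times the background level in Stem. They were 4.89 to 33.7 times that level in Ent, and 2.96 and 39.3 times in EEC. These shares are descriptions, and in bulk samples fewer cells of a type and less RNA per cell cannot be told apart.

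**Figure D2:**
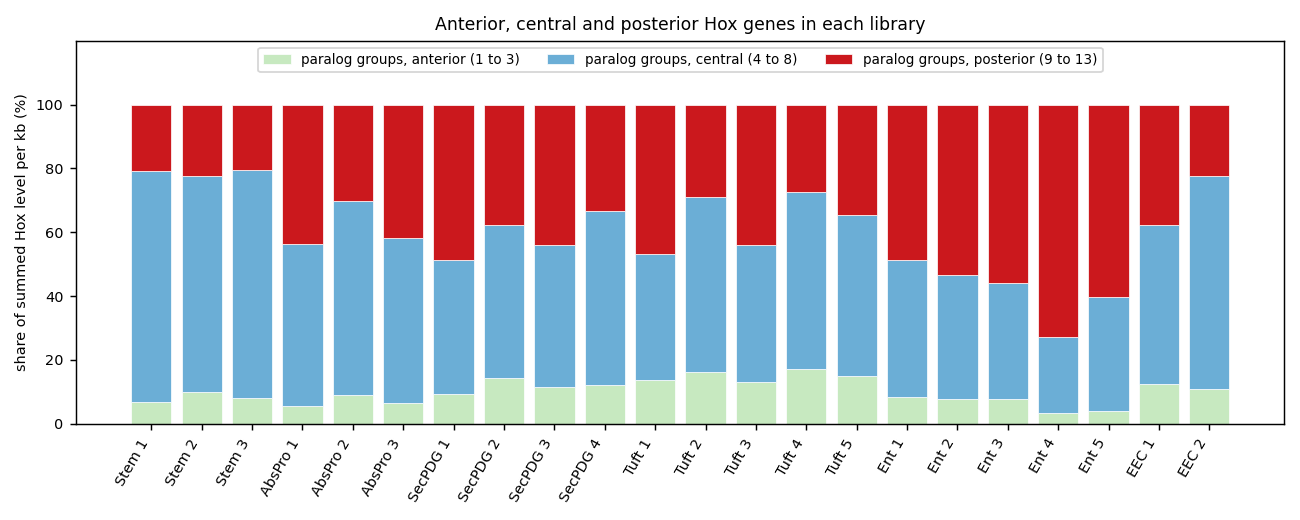
Share of the summed Hox level per kilobase, in percent, taken by anterior (1 to 3), central (4 to 8) and posterior (9 to 13) paralog groups in each of the 22 libraries. The central share averaged 70.6% in Stem and 35.5% in Ent, where the posterior share averaged 58.3%. Background was not subtracted.

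Over 8 comparisons between cell types, 13 of the 39 Hox genes were called in at least 1, of which 7 belonged to HoxB, 4 to HoxD, 2 to HoxA and 0 to HoxC. The 5 comparisons against Stem share the Stem libraries and so are not independent of each other.

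In AbsPro, the first step of the absorptive lineage, the posterior genes Hoxb13 and Hoxd13 rose and no Hox gene fell. These were 2 of the 39 Hox genes, with 0.588% of 22781 genes called in that comparison (0.496% higher and 0.0922% lower), or 1.02% of the 13188 genes with a mean of at least 50. Hoxb13, which acts in the tail, prostate and hindgut, was at 188, 255 and 209.6 normalized counts in Stem and at 2104, 751 and 1775 in AbsPro. Every AbsPro library lay above every Stem library, and the log2 fold change was 2.82 (SE 0.49, adjusted p = 0.00025, edgeR quasi-likelihood). Hoxd13, which patterns the digits and the end of the hindgut, was at 66.6, 10.2 and 30.3 in Stem and at 471, 45.5 and 638 in AbsPro. AbsPro 2 fell inside the Stem range for Hoxd13, and the log2 fold change was 3.47 (SE 0.64, adjusted p = 0.0006, edgeR). This call was lost without Stem 2, Stem 3 or AbsPro 3, with log2 fold changes of 3.00, 3.34 and 2.98. Hoxd11 averaged 3.77 ± 4.50 in Stem and 106 ± 91.8 in AbsPro, with values of 138, 2.44 and 177, and missed the threshold (log2 fold change 4.70, SE 1.12, adjusted p = 0.013, edgeR). AbsPro 2, the library lowest in all 3 of these genes within its group, was also the lowest of the group in goblet markers (84344), enteroendocrine markers (3817), stromal markers (182) and silent family reads (13.1 CPM), and the part of these in the difference was not tested. The median log2 fold change was 0.08 for the 25 Hox genes at or above a mean of 50, and 0.04 for all 13188 such genes.

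In SecPDG, Hoxb6 fell and no Hox gene rose, which was 1 of 39 with 4.97% of all genes called (3.38% higher and 1.59% lower), or 8.58% of those with a mean of at least 50. Hoxb6, a trunk gene of the middle of the HoxB cluster, was at 1382, 1279.6 and 1515 in Stem and at 524, 331, 340.3 and 641 in SecPDG. All 4 SecPDG libraries lay below all 3 of Stem, and the log2 fold change was -1.60 (SE 0.34, adjusted p = 0.00077, edgeR). Upper quartile scaling gave 1 higher and 2 lower calls in place of 0 and 1. Lower than in Stem but not called were Hoxa6 (-2.22, SE 0.69, adjusted p = 0.032), Hoxb5 (-1.68, adjusted p = 0.016) and Hoxb8 (-0.97, adjusted p = 0.025), and higher but not called were Hoxb13 (1.67, adjusted p = 0.016) and Hoxd8 (2.08, SE 0.62, adjusted p = 0.024), as log2 fold changes with edgeR's adjusted p. The median change of the 25 genes was -0.53 on the log2 scale, against -0.06 for all genes at that level.

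In Tuft, the 4 trunk genes Hoxa7, Hoxb6, Hoxb7 and Hoxb8 fell and no Hox gene rose. This was 10.3% of the 39, with 12.1% of all genes called (7.84% higher and 4.23% lower), or 20.9% of those with a mean of at least 50. Hoxb8, which also acts in myeloid precursors, was at 1039, 999 and 1125 in Stem and at 478, 307, 298, 347 and 558 in Tuft. The groups did not overlap, and the log2 fold change was -1.39 (SE 0.28, adjusted p = 0.00021, edgeR). Hoxb7 was at 802, 1098 and 1185 in Stem and at 249, 401, 288, 443 and 615 in Tuft (log2 fold change -1.34, SE 0.31, adjusted p = 0.00084, edgeR). Hoxb6 was at 458, 478, 509, 634 and 528 in Tuft, all below the lowest Stem library (log2 fold change -1.41, SE 0.32, adjusted p = 0.0009, edgeR). Hoxa7, the highest HoxA gene per kilobase in Stem, was at 926, 1039 and 1243 there and at 441, 546, 389, 463 and 556 in Tuft. The Hoxa7 groups did not overlap either (log2 fold change -1.15, SE 0.32, adjusted p = 0.0059, edgeR), but the call was lost without any 1 of Stem 1, Stem 2, Stem 3, Tuft 1 or Tuft 3, where the values ran from -1.25 to -1.08. DESeq2 size factors and upper quartile scaling each gave 1 higher and 4 lower calls. The median change of the 25 genes was -0.43 on the log2 scale, against -0.09 for all genes at that level. Immune markers summed to 201 to 221 in Stem and 1619.5 to 3622 in Tuft, and their part in these values was not tested.

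Between Tuft and SecPDG, which both belong to the secretory lineage, edgeR called 0 of 39 Hox genes where it called 3.37% of all genes (3.02% higher and 0.351% lower) and 5.82% of those with a mean of at least 50, and DESeq2 called 0 as well. At an unadjusted p under 0.05 there were 7 of 39, and 2 of the 25 with a mean of at least 50. Hoxa2, which patterns the face and neck, was one of these, with 66.7 ± 52.5 (SD, n = 4) in SecPDG and 173 ± 51.7 (n = 5) in Tuft (log2 fold change 1.37, edgeR adjusted p = 0.044).

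**Figure D3:**
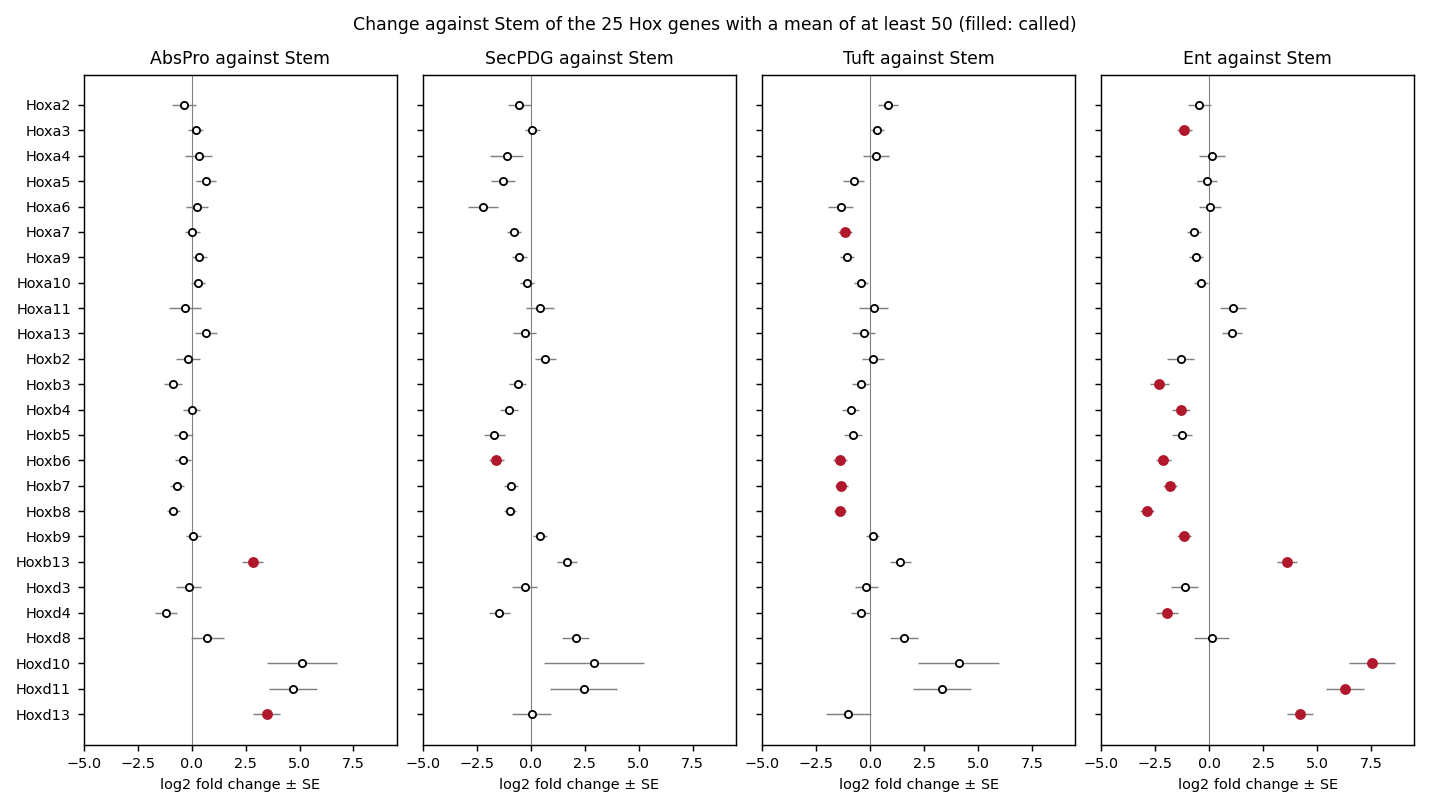
Log2 fold change with its standard error for the 25 Hox genes with a mean of at least 50, in AbsPro, SecPDG, Tuft and Ent against Stem, with called genes filled. The filled points number 2, 1, 4 and 12, and in Ent they split into 4 posterior genes above 0 and 8 genes of groups 3 to 9 below it. Hoxb9, also of the posterior groups, is among those below 0.

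The widest Hox change was in Ent, where 12 of 39 genes were called, 4 higher and 8 lower, with 22.2% of all genes called (10.7% higher and 11.5% lower). All 4 that rose belonged to posterior groups (Hoxb13, Hoxd10, Hoxd11 and Hoxd13), and all 8 that fell belonged to groups 3 to 9 (Hoxa3, Hoxb3, Hoxb4, Hoxb6, Hoxb7, Hoxb8, Hoxb9 and Hoxd4). Hoxb9 belongs to the posterior groups 9 to 13 as classed above, so these groups did not rise as a class. Of the 13188 genes with a mean of at least 50, 38.3% were called, against 12 of 25 Hox genes. The median change was -0.62 on the log2 scale over the 25 Hox genes and -0.30 over all genes. TMM scaling set that median of all genes at -0.30, while DESeq2 size factors, library totals and upper quartile factors set it at 0.35, 0.24 and 0.28. The split of 4 higher and 8 lower became 5 and 4 with size factors or upper quartile factors, and 5 and 5 with library totals. No called Hox gene changed direction under any of them.

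Among the genes that rose in Ent, Hoxb13 was at 1308, 1797, 1449, 5614 and 2972, where the highest Stem library held 255. Ent 4 was the highest and the groups did not overlap (log2 fold change 3.59, SE 0.47, adjusted p = 3.4e-08, edgeR), which is 3.89 above the median of all genes. Background would account for 0.885% of the Ent level of Hoxb13, by the silent families. Hoxd13 was at 291, 330.4, 351, 1537 and 636, again with Ent 4 highest and all above Stem (log2 fold change 4.21, SE 0.59, adjusted p = 1.2e-07, edgeR). Hoxd11, which acts in the forearm and kidney, was at 0, 2.56 and 8.76 in Stem and at 259, 204, 287, 520.1 and 289 in Ent (log2 fold change 6.28, SE 0.89, adjusted p = 1.2e-07, edgeR). Hoxd10, which acts in lumbar motor neurons and the hindlimb, was at 0, 0.64 and 2.70 in Stem and at 146, 153, 244, 373 and 255 in Ent (log2 fold change 7.54, SE 1.07, adjusted p = 1.3e-07, edgeR). For Hoxd10 the fold rests on 5 reads over all Stem libraries, and for Hoxd11 on 17. Background would account for 8.18% of the Ent level of Hoxd10 and 14.2% of that of Hoxd11. Hoxa13, the partner of Hoxd13 in the hindgut, averaged 120.3 ± 14.1 in Stem and 251 ± 155 in Ent and was not called (log2 fold change 1.07, adjusted p = 0.042, edgeR).

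Among the genes that fell in Ent, Hoxb8 was the most changed, at 200.5, 161, 57.8, 184 and 122 where Stem held 999 to 1125. The log2 fold change was -2.87 (SE 0.32, adjusted p = 5.4e-10, edgeR), or -2.57 relative to the median of all genes. Hoxb6 was at 337, 360.2, 213, 308 and 372 (log2 fold change -2.14, SE 0.34, adjusted p = 1.8e-06, edgeR), and Hoxb7 at 316, 288, 231, 209 and 409.9 (log2 fold change -1.84, SE 0.32, adjusted p = 7.7e-06, edgeR). For these 3 genes every Ent library lay below every Stem library. Hoxb3, which patterns the hindbrain and neck, was at 422, 476 and 391 in Stem and at 107, 101, 70.5, 98.1 and 54.0 in Ent (log2 fold change -2.32, SE 0.45, adjusted p = 4.4e-05, edgeR). Background would account for 43.1% of that Ent level and for 19.2% of that of Hoxb8, and with it subtracted the log2 ratios of the means were -3.13 and -3.17. Hoxb9, which patterns the ribs, was at 965, 1173 and 1391 in Stem and at 438, 606, 204, 799.5 and 570.5 in Ent (log2 fold change -1.17, SE 0.32, adjusted p = 0.0019, edgeR). Hoxb9 was not called with DESeq2 size factors or upper quartile factors. Falls were also called for Hoxd4 (-1.97, SE 0.52, adjusted p = 0.0016), Hoxb4 (-1.31, SE 0.42, adjusted p = 0.0073) and Hoxa3 (-1.16, SE 0.35, adjusted p = 0.0045), as log2 fold changes from edgeR. Hoxd4 was at 214, 159 and 325 in Stem and at 64.4, 91.8, 46.2, 54.7 and 37.4 in Ent, Hoxb4 at 188, 166 and 299.8 and at 109.8, 73.4, 57.8, 104 and 98.3. Hoxa3, at 241, 367 and 448 in Stem and 117, 149, 93.6, 276 and 147 in Ent, overlapped through Ent 4. The calls of these 3 were lost under each of the other scalings. Hoxa3 was also lost without Ent 2 (-1.14) or Ent 3 (-1.01), Hoxd4 without Stem 3 (-1.84), and Hoxb4 without Stem 1, Stem 3, Ent 2, Ent 3 or Ent 5 (-1.41 to -1.19).

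**Figure D4:**
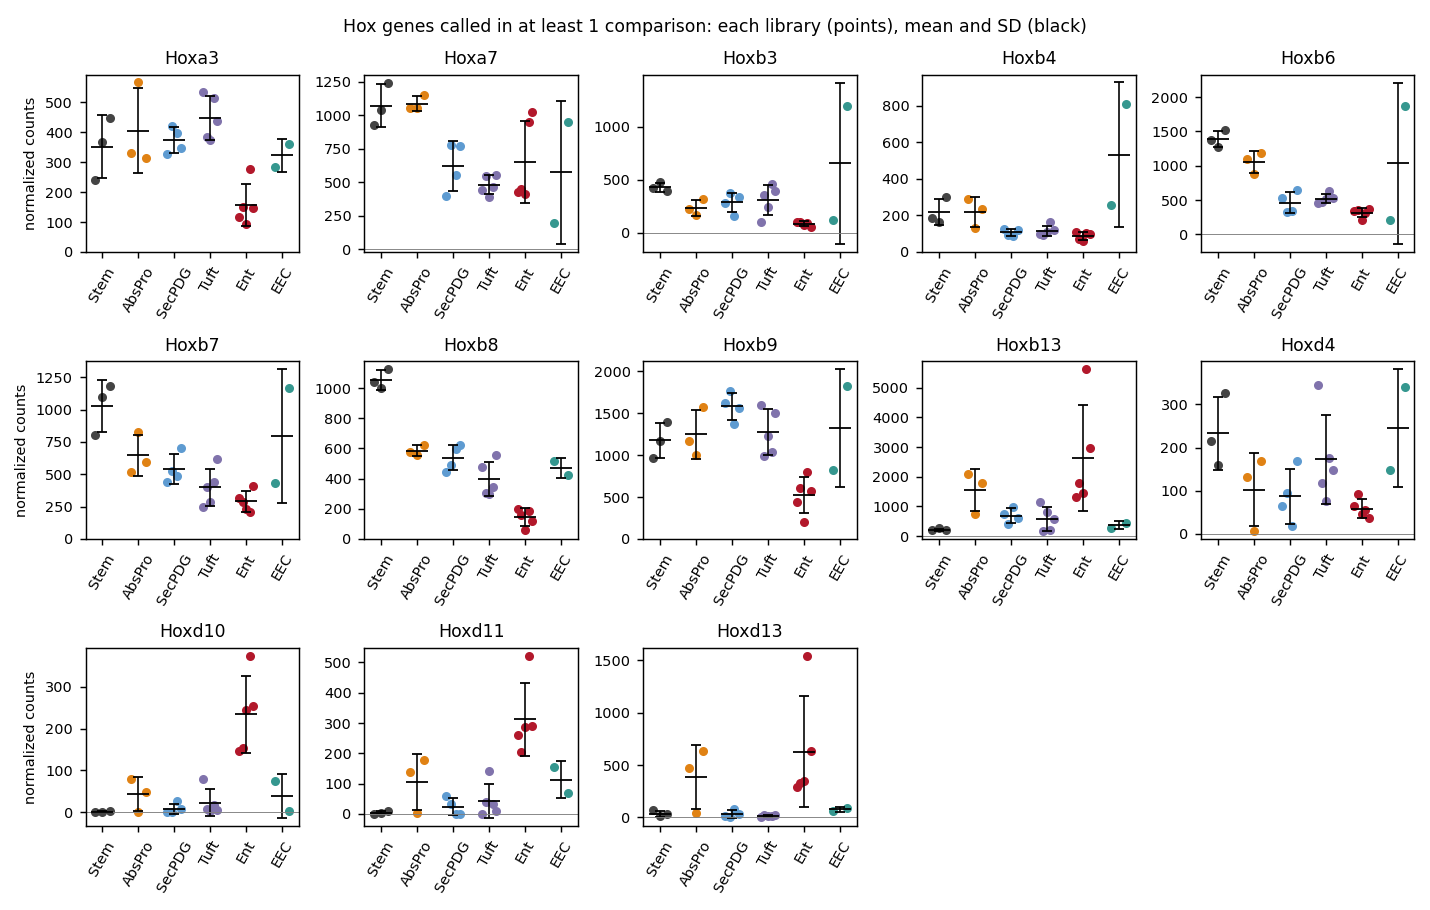
Normalized counts of the 13 called Hox genes in each library (points), with the mean and SD of each cell type in black and a separate linear scale per gene. Hoxb13, Hoxd10, Hoxd11 and Hoxd13 stood highest in Ent (Hoxb13 at 1308 to 5614), Hoxb8 fell from 999 to 1125 in Stem to 57.8 to 200.5 in Ent, and the 2 EEC libraries lay far apart for Hoxb3 (119 and 1192) and Hoxb6 (204 and 1867).

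Within the absorptive lineage, Ent against AbsPro had 8 calls, 2 higher and 6 lower, with 16.2% of all genes called (8.21% higher and 7.97% lower), or 27.9% of those with a mean of at least 50. Hoxd10 rose from 79.8, 0 and 49.7 in AbsPro (log2 fold change 2.41, SE 0.57, adjusted p = 0.00081, edgeR) and Hoxd11 from 138, 2.44 and 177 (log2 fold change 1.58, SE 0.50, adjusted p = 0.0082, edgeR). Hoxd10 was lost without AbsPro 2 (1.83), and Hoxd11 without any 1 AbsPro library or without Ent 1, Ent 3 or Ent 4 (1.00 without AbsPro 2 and up to 1.86 without the others). Both were also lost with DESeq2 and with older edgeR dispersions, each of which called 0 Hox genes higher and 4 lower. Hoxb8, at 575, 559.5 and 625 in AbsPro, fell by 2.03 on the log2 scale (SE 0.34, adjusted p = 1.4e-05, edgeR), and Hoxb6, at 1101, 882 and 1179.8, fell by 1.73 (SE 0.35, adjusted p = 0.00016, edgeR). Hoxb9 (-1.25), Hoxb7 (-1.16), Hoxa3 (-1.36) and Hoxb4 (-1.33) were also called lower, with adjusted p from edgeR of 0.0017, 0.0043, 0.0020 and 0.0098. Hoxb7 was lost without AbsPro 2, Ent 2 or Ent 3 (-1.16 to -0.94), Hoxa3 without AbsPro 2 (-1.03), and Hoxb4 without AbsPro 1, Ent 2, Ent 3 or Ent 5 (-1.37 to -1.20). These 3 calls were also lost under each of the other scalings. The split was 3 and 3 with size factors, 2 and 3 with library totals and 3 and 2 with upper quartile factors, where the median of all genes was 0.27, 0.21 and 0.22 in place of -0.38. Hoxb13, at 751 to 2104 in AbsPro and 1308 to 5614 in Ent, was not called between them.

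Between the progenitor populations, Hoxd13 was the 1 Hox gene called, higher in AbsPro than in SecPDG, with 3.72% of all genes called (1.72% higher and 2% lower), or 6.42% of those with a mean of at least 50. It was at 12.3, 2.49, 80.0 and 34.3 in SecPDG, so that AbsPro 2 (45.5) lay within that range (log2 fold change 3.44, SE 0.62, adjusted p = 6e-05, edgeR). Hoxa5, which acts in lung and gut maturation, was at 238 to 310.1 in AbsPro and 0 to 136 in SecPDG and missed the threshold (log2 fold change 1.97, SE 0.53, adjusted p = 0.011, edgeR). Hoxa6 was at 73.2 to 212 and 0.945 to 49.7 (log2 fold change 2.47, SE 0.68, adjusted p = 0.015, edgeR). The groups did not overlap for either gene. The change from SecPDG to Tuft was also set against the change from AbsPro to Ent in 1 test of the difference, which called 0 of 39 Hox genes (edgeR, 0.364% of all genes called), with 9 at an unadjusted p under 0.05. The nearest was Hoxb6, with a difference of -1.92 on the log2 scale (SE 0.48, adjusted p = 0.033, edgeR).

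EEC had 2 libraries that differed widely. Hoxb4 (255 and 813) and Hoxd11 (155 and 69.2) were called higher than in Stem, 2 of 39 with 19.9% of all genes called (10.8% higher and 9.13% lower) and 34.4% of those with a mean of at least 50, and no Hox gene was called lower. Hoxb4 overlapped Stem (166 to 299.8), and its log2 fold change of 1.35 (SE 0.42, adjusted p = 0.0072, edgeR) became 0.22 without EEC 2. It was also lost without Stem 1 or Stem 2 (1.26 and 1.07). Hoxd11 (log2 fold change 4.72, SE 1.34, adjusted p = 0.0031, edgeR) was lost without any 1 Stem library (4.21 to 5.98) or EEC 1 (3.94). With 1 EEC library left, the spread was taken from the other groups and the lone library was assumed to vary like them. Background would account for 49.5% of the EEC level of Hoxd11 and 6.35% of that of Hoxb4, and the Hoxd11 call was lost where background had to be under 10%. A fit of Stem and EEC alone called 0 Hox genes. Hoxb6 was at 204 and 1867, Hoxa6 at 1.81 and 622, Hoxb3 at 119 and 1192, and Hoxb8 at 517 and 423. EEC 1 was the library with the most silent family reads (7176 CPM), and the part of that in these gaps was not tested. Hoxa11, a uterus and limb gene, had 2 reads in EEC and was 32.5 times lower there than in Stem by ratio, with a 95% counting interval of 9.01 to 268.6, and was not called (edgeR adjusted p = 0.067). Silent families would give it 30.2 normalized counts in EEC, where the mean was 1.81, so the background estimate did not hold for Hoxa11.

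The remaining HoxA genes with a mean of at least 50 were called in no comparison. Hoxa9, a regulator of blood progenitors, averaged 580.3 ± 106 in Stem, 738 ± 158 in AbsPro, 405 ± 94.9 in SecPDG, 274 ± 50.7 in Tuft, 374 ± 166 in Ent and 631 ± 555 in EEC. Its closest approaches to a call were Tuft against Stem (-1.07, adjusted p = 0.013) and Ent against AbsPro (-0.97, adjusted p = 0.013), in log2 fold change by edgeR. Hoxa10, which acts in the uterus, averaged 495 ± 59.8 in Stem and between 365 ± 78.5 (Tuft) and 609 ± 37.1 (AbsPro) elsewhere. Hoxa4 ran from 24.9 ± 23.2 in SecPDG to 102 ± 1.34 in EEC. In the other clusters Hoxb5, which acts in enteric neural crest, averaged 322 ± 174 in Stem and 133 ± 18.5 in Ent (log2 fold change -1.26, edgeR adjusted p = 0.013). Hoxb2 averaged 89.8 ± 42.1 in Stem and 36.4 ± 11.0 in Ent, Hoxd3 88.4 ± 62.5 and 42.5 ± 27.4, and Hoxd8 31.4 ± 19.7 and 35.8 ± 32.0, with none called.

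HoxC held at most 51 reads per library in Stem, AbsPro and SecPDG and lay near background in the mature populations. Of its 9 genes, 8 had 0 reads in all Stem libraries, and the 51 HoxC reads in Stem were all on Hoxc4 in Stem 1. AbsPro libraries held 24, 0 and 2 HoxC reads, and SecPDG libraries 14, 27, 2 and 4. Tuft libraries held 27 to 173 HoxC reads, at 0.93 to 2.07 times the level background alone would give over the same exon length, and Ent libraries 99 to 348, at 1.28 to 1.62 times. EEC held 334 and 162 reads, at 1.50 and 2.59 times. Hoxc6 had the highest of these in EEC, at 98.8 ± 5.94 normalized counts, which is 4.73 times background. Hoxc13 had 0 reads in Stem, AbsPro and SecPDG. With no minimum mean, 22 Hox genes were called in Ent against Stem, and the 10 added were all higher, with 7 HoxC genes among them. The share of HoxC in the summed Hox level was 0.14% in Stem, 4.31% in Ent and 7.23% in EEC. All 39 Hox genes had at least 1 read in some mature libraries, and 25 to 29 did in a Stem library.

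**Figure D5:**
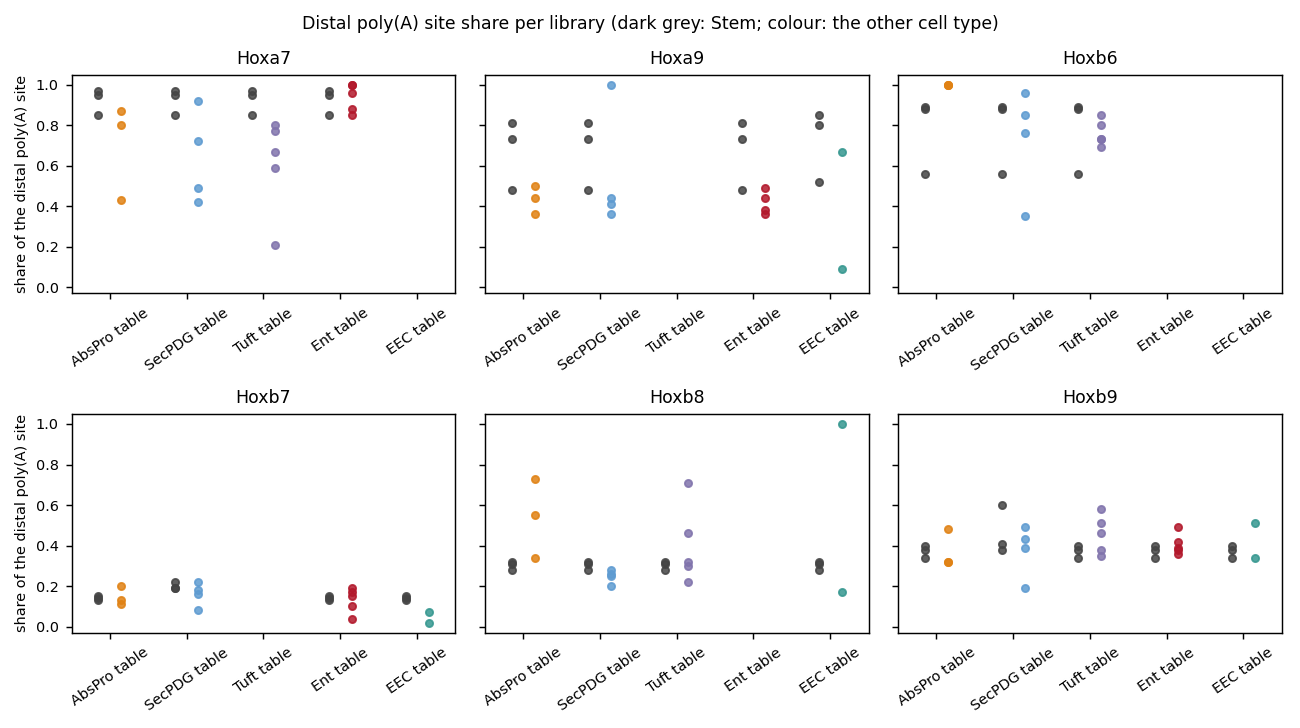
Share of transcripts ending at the distal poly(A) site (0 to 1, long 3′ UTR at 1) for 6 Hox genes, with each point 1 column of the deposited tables, Stem in dark grey and the other cell type in colour. No Hox entry was called, and Hoxb7 shares lay between 0.02 and 0.22 in the tables that held it, at 0.02 and 0.07 in EEC.

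The length of the 3′ UTR was measured in the same libraries as the share of transcripts that use the distal of 2 poly(A) sites. The tables held 29 testable entries over 9 Hox genes, and limma called 0 of them at an adjusted p under 0.05, where it called 0%, 0.0237%, 0.0614%, 0.0408% and 0% of all transcripts in AbsPro, SecPDG, Tuft, Ent and EEC. At an unadjusted p under 0.05 there were 5, and the lowest adjusted p was 0.356 (limma). Hoxb7, whose miR-196 seed match lies in the long form alone, had mostly short 3′ UTRs, with shares of 0.15, 0.13 and 0.14 in Stem and 0.17, 0.15, 0.04, 0.19 and 0.1 in Ent. In EEC its shares of 0.02 and 0.07 lay below those of Stem (unadjusted p = 0.034, adjusted p = 0.356, limma). Hoxa9 had shares of 0.81, 0.48 and 0.73 in Stem and 0.36, 0.44, 0.38 and 0.49 in the 4 Ent columns with a value (unadjusted p = 0.025, limma). Hoxa7 had shares of 0.85, 0.95 and 0.97 in Stem and 0.21, 0.77, 0.80, 0.59 and 0.67 in Tuft, with no overlap (unadjusted p = 0.015, limma). Hoxb6 was at 0.56, 0.88 and 0.89 in Stem and at 1, 1 and 1 in AbsPro. Hoxb8 was at 0.32, 0.28 and 0.31 in Stem and at 0.73, 0.55 and 0.34 in AbsPro. None of these 3 passed the adjusted threshold, and for Hoxa7 the 4 seed matches lie outside the measured stretch.

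Reads on the precursor locus of miR-196a in HoxB, which do not measure the mature microRNA, averaged 118 ± 39.4 in Stem, 126 ± 42.1 in AbsPro, 45.5 ± 20.5 in SecPDG, 39.0 ± 14.2 in Tuft, 78.9 ± 35.3 in Ent and 28.1 ± 6.55 in EEC. Of 36 listed genes within or beside the clusters, 22 were tested. In Ent against Stem 3 rose, which were Hottip, Skap1 and Ttll6, and 0 fell. This was 13.6% of those tested, with 22.2% of all genes called. Hottip, a long noncoding RNA next to Hoxa13 that is known to act on the posterior HoxA genes, was at 33.9 to 169 in Stem and 173 to 440.3 in Ent (log2 fold change 1.52, SE 0.43, adjusted p = 0.0028, edgeR). The groups did not overlap, and the call held under the other scalings. Skap2, next to HoxA, was called higher in Tuft than in Stem (589 ± 93.1 and 1521 ± 578, log2 fold change 1.38, edgeR adjusted p = 0.0014). No other gene of the list was called there (4.55% of those tested, with 12.1% of all genes called). Hoxa11os, which overlaps Hoxa11 on the opposite strand by 568 bases and cannot be separated from it in these unstranded counts, was called higher in AbsPro than SecPDG (1.90). Ttll6 was called higher in that comparison too, which made 9.09% of those tested, with 3.72% of all genes called. In AbsPro against Stem edgeR called 0 of these genes, with 1 at an unadjusted p under 0.05. Over the 13 genes of this list with a mean of at least 50, the median change in Ent was -0.55 on the log2 scale.

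Of the TALE cofactors, 11 were listed. In Ent, Meis2 and Pknox2 rose and Pbx2, Pknox1 and Tgif1 fell against Stem. Meis2 averaged 7.05 ± 5.47 in Stem and 117 ± 51.2 in Ent (log2 fold change 3.95, SE 0.82, adjusted p = 9.8e-05, edgeR). Pknox2 had no read in Stem and averaged 152 ± 60.7 in Ent. Both were also called higher than Stem in Tuft, where Meis2 averaged 65.8 ± 32.9 and Pknox2 94.9 ± 45.5. In EEC both were called higher than Stem too, with Meis2 at 83.7 and 221 in the 2 libraries. Pknox2 was at 2.43 in the lower EEC library and at 569 in the higher, so its rise there was not shared by both. Meis3 was called higher in EEC as well, at 456 and 660 against 129 to 262 in Stem. Silent family reads and stromal markers were higher in Ent and EEC too, and their part in these values was not tested. Tgif1, a repressor of the same class, fell in SecPDG (-1.21), Tuft (-1.77), Ent (-1.59) and EEC (-1.77) against Stem, as log2 fold changes. Tgif2 was called lower in SecPDG (-2.65). Pbx2 and Pknox1 were lost under all 3 other scalings. The median of the 9 with a mean of at least 50 was -0.53 on the log2 scale in Ent.

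Of the Cdx and ParaHox list, Cdx1 and Cdx2 reached a mean of 50 and both fell in Ent. Cdx2 averaged 4982 ± 538 in Stem and 1159 ± 483 in Ent (log2 fold change -2.10, SE 0.36, adjusted p = 5.7e-06, edgeR), and it held under the other scalings. Cdx1 averaged 4652 ± 525 and 2199.5 ± 1194 (log2 fold change -1.08, adjusted p = 0.0071, edgeR), and it held under 1 of the 3. In AbsPro, where Hoxb13 was already higher, Cdx2 averaged 5134 ± 1786 and Cdx1 5329 ± 449, with neither called against Stem. Both were called lower in EEC as well (Cdx1 -2.04, Cdx2 -1.71).

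Polycomb proteins, which keep Hox genes silent, and Trithorax proteins, which keep them active, were counted from lists of 23 and 10 genes, the latter with the H3K27 demethylases Kdm6a and Kdm6b. In Ent against Stem 9 Polycomb genes (39.1%) fell and 0 rose, and 5 genes (50%) of the Trithorax list fell and 0 rose. All genes of both lists had a mean of at least 50. Of the 13188 genes at that level, 2609 were called lower and 38.3% were called in either direction. The medians of the 2 lists were -0.73 and -0.99 on the log2 scale, against -0.30 for all genes. Ezh2, the methyltransferase of the Polycomb repressive complex, averaged 1799 ± 332 in Stem and 536 ± 156 in Ent (log2 fold change -1.75, edgeR adjusted p = 1.2e-05). Its partner Suz12 fell by 1.70 on the log2 scale and both held under the 3 other scalings, as did Cbx6, while 5 of the 9 were lost under all of them. Wdr5, a core subunit of Trithorax complexes, averaged 950 ± 136 and 272 ± 81.6 (log2 fold change -1.80, edgeR) and held under all 3. In Tuft, Jarid2 rose and Cbx7, Ezh2 and Pcgf6 fell, and in SecPDG Mtf2 rose and Phc1 fell. In EEC, Ezh2, Rnf2, Suz12 and Wdr5 fell. In AbsPro against Stem edgeR called 0 genes of either list, with 4 of the Polycomb list and 1 of the Trithorax list at an unadjusted p under 0.05.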

How the data were processed

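RNA was sequenced from 22 libraries of sorted cells from mouse colon. The authors trimmed reads, aligned them to mm10 with STAR 2.5.2a, merged them with SAMtools 1.3 and deposited raw counts per gene from HTSeq 0.6.1p1, counted without regard to strand, so overlapping antisense genes cannot be separated. Entries that name no gene held 53.9% to 91.6% of reads and were left out. Deposited fractions of distal poly(A) site use came from DaPars, in 5 tables against Stem whose columns name the cell type and not the library. Columns with the authors' own comparisons and splicing tables were not used.

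Counts were fitted over all 6 groups with edgeR 4.0.16 (R 4.3.3), TMM factors and quasi-likelihood tests, over the 22781 genes that passed filterByExpr. The p-values were adjusted by Benjamini and Hochberg over all of them. Fractions were tested with limma 3.58.1, and DESeq2 1.42.0 was an alternative. Background per kilobase came from silent families. Both scripts were tested on simulated data. Coordinates and exon lengths came from GENCODE vM21 (GRCm38).

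Members and lists were chosen with earlier results of these data known. All Hox symbols were accounted for by cluster and group. Those with a mean of at least 50 were described with folds and tests, library values were given for those called or highest in Stem, and listed genes were given as counts. Some items are not reported here. The test of the difference between lineages, older dispersions and the fit without Ent 1 to 3 and EEC 1 were added after the data were seen. Replicates were biological samples. The paper states that each Stem and AbsPro library came from a single mouse and every other library from several pooled mice. Where these are compared, pooling cannot be told apart from cell type. Intervals cover counting error only.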

Additional observations from a re-analysis of the deposited data

Results flagged for a closer look

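Values that stood apart within their own group of 4 or 5 libraries, by the gap to the nearest library over the range of the group (Dixon's 95% limit), were found in 7 of 75 sets of 1 gene in 1 cell type, where chance gives about 1 in 20. Ent 4 was high in 4 of these: Hoxa5 at 285 normalized counts (nearest 145), Hoxa9 at 663 (345), Hoxd11 at 520.1 (289) and Hoxd13 at 1537 (636). Ent 4 also had the fewest silent family reads of the Ent libraries (789.9 CPM), and the part of this in its Hox levels was not tested. The others were Hoxa13 at 247 in SecPDG 1 (60.7), Hoxd10 at 79.3 in Tuft 1 (17.3) and Hoxd11 at 140.3 in Tuft 3 (37.9).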

How the results depend on the processing

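Counts of called Hox genes moved by over 1.5 times as follows. AbsPro against Stem went from 2 to 1 with older edgeR dispersions, and SecPDG against Stem from 1 to 2 (DESeq2 size factors, no low count filter, DESeq2), 3 (upper quartile factors), 5 (library totals, fit of the pair alone) and 6 (adjusted p under 0.05). Tuft against Stem went from 4 to 7 (adjusted p under 0.05, DESeq2). Ent against Stem went from 12 to 22 with no minimum mean and to 5 where background had to be under 10%. EEC against Stem went from 2 to 4 (size factors, adjusted p under 0.05), 7 (no minimum mean), 1 (minimum over the pair, thinned counts, background under 10%) and 0 (pair alone, older dispersions). AbsPro against SecPDG went from 1 to 3 (size factors), 4 (adjusted p under 0.05), 5 (pair alone) and 6 (library totals). Ent against AbsPro went from 8 to 5 (library totals, upper quartile factors, thinned counts), 15 (no minimum mean) and 4 (background under 10%, older dispersions, without Ent 1 to 3 and EEC 1, DESeq2). Tuft against SecPDG went from 0 to 1 at an adjusted p under 0.05. Leaving out 1 library at a time gave 1 to 3, 1 to 2, 3 to 5, 10 to 13, 0 to 3, 1 to 2, 4 to 9 and 0 to 0 in the order AbsPro, SecPDG, Tuft, Ent and EEC against Stem, AbsPro against SecPDG, Ent against AbsPro and Tuft against SecPDG, and 0 to 1 for distal poly(A) site use. The 7 calls lost in Ent against Stem where background had to be under 10% in both groups were Hoxa3, Hoxb3, Hoxb4, Hoxb8, Hoxd4, Hoxd10 and Hoxd11. No called Hox gene reversed under any alternative.

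With a replicate block the counts were 3, 4, 5, 14, 3, 4, 11 and 0 in the same order. Deviations of libraries with the same number correlated from -0.39 to 0.49 over 44 pairs, with a median of 0.00 and 16 pairs over 0.1. The median between other numbers was 0.02, and 6 of 22 libraries were closest to their own number. Same-number libraries thus showed no general tendency to deviate together, but a median over all pairs cannot exclude pairing of some samples. No pairing was fitted in the main test. Few or no reads on HoxC and Hoxd10 in Stem limit their folds, though Stem libraries held 19900282 to 22462518 reads on genes. For EEC the limit is 2 libraries. Settings that leave 1 EEC library take their spread from the other groups.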
